A study of Homo sapiens with 18 samples.

Results

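Occupancy of the glucocorticoid receptor (GR) and of the NF-κB subunit RELA was compared site by site in A549 cells treated with IL-1β-plus-budesonide. All 11571 sites of the authors' deposited table have a GR value and a RELA value for this cotreatment, so all 11571 of 11571 entered the comparison. The antibodies differ, and a GR value cannot be set against a RELA value directly. Each site was therefore ranked within its own ChIP, the rank was expressed as a percentile of the 11571 sites (100 is the highest), and the gap is the GR percentile minus the RELA percentile. A549 is an established human lung adenocarcinoma line with features of type II alveolar epithelium. After a night without serum, cells received budesonide at 300 nM, IL-1β at 1 ng/mL, the combination, or no stimulus (NS) for 1 hour, with 2 libraries per antibody and treatment. The table gives 1 binding intensity per site, antibody and treatment over those 2 libraries, so there is no error beside any value, the depth is unknown, and whether a library stood apart could not be examined. Values for GR with budesonide alone and RELA with IL-1β alone stand beside the cotreatment where stated. They come from other libraries of the same line. ChIP gives no expression level, so the cell label was not checked against marker genes.

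GR is a nuclear receptor that enters the nucleus once bound by a glucocorticoid such as budesonide. It binds DNA directly, as a dimer, at glucocorticoid response elements (GREs), which are inverted repeats, and also reaches DNA with other factors. RELA is held in the cytoplasm by IκB proteins until a cytokine such as IL-1β causes their breakdown, after which NF-κB dimers bind κB elements near inflammatory genes. In airway epithelial cells, glucocorticoids repress many inflammatory genes but leave others, including genes that restrain inflammation, expressed or further induced. A site where only GR, only RELA or both are strong can therefore be described by which element it carries and which genes it lies near.

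The sequences at the centres of a few sites show the kinds of site described below. All are from GRCh38, read 5′ to 3′ on the plus strand, and capitals mark a match to a GRE (GNACA and TGTNC separated by 3 bases) or to the κB consensus, on either strand. The first 4 are sites where GR ranked far above RELA and that hold a GRE.
KLF13 intron, chr15:31365912-31365991: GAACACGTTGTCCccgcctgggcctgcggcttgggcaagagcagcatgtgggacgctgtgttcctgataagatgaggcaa
NRTN intron, chr19:5805921-5806000: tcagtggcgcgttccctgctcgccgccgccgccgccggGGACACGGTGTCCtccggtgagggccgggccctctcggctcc
SCNN1B upstream, chr16:23256594-23256673: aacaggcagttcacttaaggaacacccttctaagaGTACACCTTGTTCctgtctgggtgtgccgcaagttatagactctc
FCRL5 distal, chr1:157420186-157420265: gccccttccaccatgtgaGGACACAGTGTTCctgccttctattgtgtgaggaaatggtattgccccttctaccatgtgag

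The next 4 are sites where RELA ranked far above GR, each with a κB element within the printed bases.
CEMIP upstream, chr15:80776549-80776628: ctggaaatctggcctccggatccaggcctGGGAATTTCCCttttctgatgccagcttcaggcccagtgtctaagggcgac
FEM1C distal, chr5:115450809-115450888: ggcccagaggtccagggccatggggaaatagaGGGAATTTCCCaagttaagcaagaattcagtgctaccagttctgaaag
ENPP1 intron, chr6:131819618-131819697: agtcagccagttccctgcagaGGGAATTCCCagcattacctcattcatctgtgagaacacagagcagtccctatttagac
NUAK1 distal, chr12:106022730-106022809: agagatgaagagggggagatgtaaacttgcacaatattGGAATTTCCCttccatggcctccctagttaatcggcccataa

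The last set holds sites that ranked at the top for both factors. The PRKCH site carries a GRE within the printed bases and a κB element within 200 bp around its centre. The VMP1 site carries neither as defined above, but its bases ACAGAATGT match a GRE without the outer bases G and C. The CWH43 site is made of a short repeat, and the FSTL3 and SERPINA2 sites hold κB elements in a tandem array.
PRKCH intron, chr14:61545897-61545976: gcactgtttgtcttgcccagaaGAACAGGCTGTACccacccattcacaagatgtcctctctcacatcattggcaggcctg
VMP1 intron, chr17:59825688-59825767: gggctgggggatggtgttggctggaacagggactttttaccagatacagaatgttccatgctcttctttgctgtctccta
CWH43 distal, chr4:49154874-49154953: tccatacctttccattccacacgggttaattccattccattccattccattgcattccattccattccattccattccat
FSTL3 upstream, chr19:674646-674845: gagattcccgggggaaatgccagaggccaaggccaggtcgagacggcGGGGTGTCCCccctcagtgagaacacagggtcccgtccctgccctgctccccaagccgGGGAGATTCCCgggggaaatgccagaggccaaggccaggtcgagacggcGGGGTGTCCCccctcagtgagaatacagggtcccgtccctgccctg
SERPINA2 and SERPINA6 region, chr14:94346052-94346251: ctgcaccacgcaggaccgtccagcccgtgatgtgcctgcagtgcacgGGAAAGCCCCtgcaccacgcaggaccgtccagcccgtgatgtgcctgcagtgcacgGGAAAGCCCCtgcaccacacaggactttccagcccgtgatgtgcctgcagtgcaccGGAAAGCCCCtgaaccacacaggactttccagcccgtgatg

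GR and RELA ranks under cotreatment rose together, and most steeply among the strongest sites. Over the 11571 sites Spearman's rho was 0.339. This is a description with no p, since sites share the same 4 libraries, their depth and their base composition. The binding intensity had a median of 4.64 and a maximum of 10.8 for GR, and a median of 4.37 and a maximum of 10.5 for RELA. An intensity of at least 4 was present at 7895 sites for GR (68.2%), at 7146 for RELA (61.8%) and at 5163 for both (44.6%). GR alone reached it at 2732 sites, RELA alone at 1983 and neither at 1693. The table is itself a selection of bound sites, since only 64 sites lay below 4 in all 4 columns read here, and the part of that selection in the rank association was not tested.

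The rise of RELA with GR lay in the upper bins of the GR ranking. Across the lowest 50% of sites by GR, taken as 5 bins of 10%, the median RELA percentile stayed between 36.1 and 43.0. It was 41.9, 46.9, 56.5 and 67.7 in the next 4 bins and 85.8 in the highest. Ranked the other way, the median GR percentile was 31.6 in the lowest bin of RELA, 49.98 in the fifth and 85.1 in the highest, so that GR also rose across the lower bins of RELA. Among the 2893 sites in the top 25% for GR rho was 0.393, whereas among the 8678 sites below it rho was 0.0814.

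Of the 1158 sites in the top 10% for GR, 477 were also among the 1158 in the top 10% for RELA, 41.2% of either list. The top 25% lists held 2893 sites each and shared 1424, 49.2% of either. At the opposite corners, 223 sites were in the top 25% for GR and the bottom 25% for RELA, and 405 were in the bottom 25% for GR and the top 25% for RELA. Strong RELA with weak GR was thus the more frequent of the discordant corners.

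**Figure D1:**
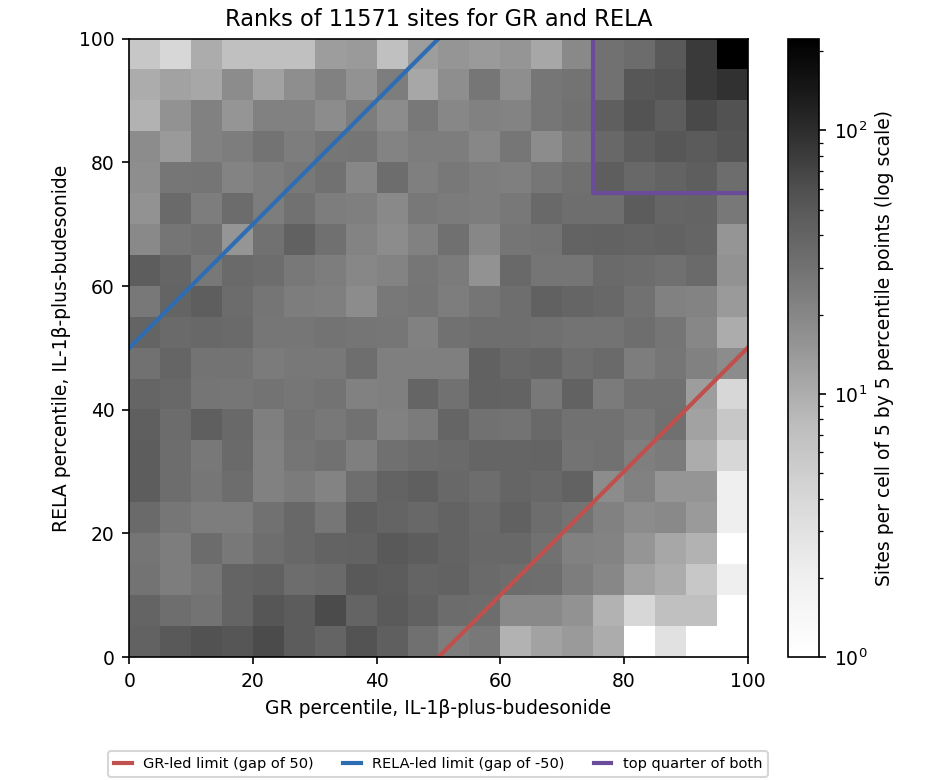
Number of sites (grey, log scale, white for 0 or 1 site) in cells of 5 by 5 percentile points, with the GR percentile on the x axis and the RELA percentile on the y axis, both under IL-1β-plus-budesonide. Sites crowd into the upper right corner, where 1424 sites are in the top 25% for both, and the lines mark the limits beyond which 645 sites were GR-led and 989 RELA-led.

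Sites led by 1 factor were a minority. A site was called GR-led when its gap was at least 50 points and RELA-led when it was at most -50. There were 645 GR-led sites (5.57% of all) and 989 RELA-led sites (8.55%). The gap ran from -98.2 to 88.5, with quartiles at -22.5 and 23.4, and 2879 sites (24.9%) had percentiles within 10 points of each other. The limit of 50 points is arbitrary, and the gaps closest to it were 50.03 and 49.99 for GR and -50.02 and -49.99 for RELA.

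The led sites were weak, not empty, for the other factor. The median GR-led site had a GR intensity of 5.59 and a RELA intensity of 3.03. The median RELA-led site had a RELA intensity of 5.36 and a GR intensity of 3.07. Both minor values fell short of 4, the intensity used above. The median site in the top 25% for both had 6.44 for GR and 5.97 for RELA, above the leading value of either led class.

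The led classes differed in the sequence under the site. The ranks did not use sequence, so motif content did not enter the definition of the classes. The table is a selection of sites bound by GR or RELA, however, and the part of that selection in the motif shares was not tested. A GRE lay within 200 bp around the centre at 286 of 645 GR-led sites (44.3%, 95% Wilson interval 40.6 to 48.2) and at 1 of 989 RELA-led sites (0.101%, 0.0179 to 0.571). Without the outer bases of the GRE these shares were 62.2% and 4.65%. With them, the share was 10.9% (10.4 to 11.5) of all sites and 0.281% (0.221 to 0.358) of 23115 control windows of the same length, 2000 bp to either side. A κB element lay at 575 RELA-led sites (58.1%, 55.0 to 61.2) and at 11 GR-led sites (1.71%, 0.955 to 3.03), beside 18.7% (18.0 to 19.5) of all sites and 2.11% (1.93 to 2.30) of control windows. These intervals cover counting error over sites only, and a motif match is a description of the letters and does not show direct binding.

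Most sites high for both factors held neither element, and few held both. In the top 25% for both, 8.99% of the 1424 sites held a GRE (7.61 to 10.6) and 17.8% a κB element (15.9 to 19.9), with intervals that reach or lie just below the shares over all sites. The majority, 1067 of 1424, held neither, and 25 held both. Sites with both elements were nevertheless in this class more often, at 29.8%, beside 13.0% of sites with neither and 12.3% of all sites. Without the outer bases of the GRE, 22.8% of these 1424 sites held one. Sites low for both, in the bottom 25% of each ranking, numbered 901 and held a GRE at 10.5% and a κB element at 6.99%.

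Elements of other factors differed much less between the classes. AP-1 elements (TGANTCA), bound by FOS and JUN proteins, lay at 16.6% of GR-led (13.9 to 19.7), 16.8% of RELA-led (14.6 to 19.2) and 20.8% of high sites (18.8 to 22.97). The share was 21.0% of all sites and 6.37% of control windows, so both led classes lay below the share over all sites. C/EBP elements (TTGCNNAA) lay at 14.6% of GR-led sites (12.1 to 17.5) and 21.3% of RELA-led sites (18.9 to 24.0), beside 20.2% of all sites and 10.2% of control windows. The forkhead element (TGTTTAC), bound by FOXA proteins in lung epithelium, lay at 6.82%, 5.56% and 8.43% of GR-led, RELA-led and high sites. It lay at 8.81% of all sites and 2.87% of control windows. The GC box (GGGCGG), common at promoters, lay at 7.75% of GR-led, 11.5% of RELA-led and 10.5% of high sites, beside 6.66% of all sites and 4.04% of control windows. The TEAD element (GGAATG) lay at 14.9%, 14.4% and 20.8% of GR-led, RELA-led and high sites, beside 17.9% of all sites. Its letters also occur in the GGAAT repeat described below.

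Read from the sequence side, GRE and κB sites differed in the level of each factor, and within each motif group the ranks rose together. The 1178 sites with a GRE and no κB element had a median GR percentile of 66.8 and a median RELA percentile of 22.2. The 2084 with a κB element and no GRE had medians of 28.5 for GR and 72.6 for RELA. The 8225 sites with neither sat near the middle for both factors, at 52.0 and 46.9. Within each of these groups the rank correlation was higher than over all sites, at 0.675 for GRE without κB, 0.503 for κB without GRE and 0.463 for neither. Thus a strong GRE site tended to rank higher for RELA than a weak GRE site did, although GRE sites as a group ranked low for RELA.

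The 84 sites with both elements within the same 200 bp ranked high for both factors, with a median of 76.8 for GR (quartiles 59.8 and 90.3) and 61.0 for RELA (31.7 and 84.7). Of these, 25 (29.8%) were in the top 25% for both, compared with 12.3% of all sites. With single treatments the same 84 sites had median percentiles of only 42.9 for GR with budesonide and 32.9 for RELA with IL-1β. GRE sites without κB, by contrast, had a median GR percentile of 72.5 with budesonide alone, and κB sites without GRE a median RELA percentile of 74.7 with IL-1β alone. None of the 84 was RELA-led and 7 were GR-led.

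**Figure D2:**
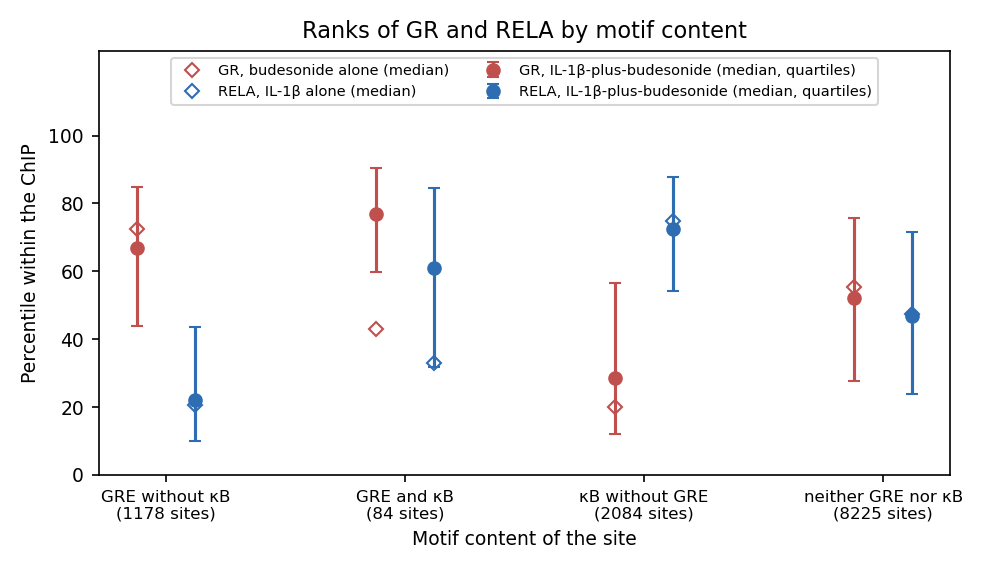
Percentile of GR and RELA within each ChIP by motif content, as medians with quartiles under IL-1β-plus-budesonide (filled points) and as medians with the single treatment (open points). Sites with both elements are the group whose ranks differ most between single treatment and cotreatment, from 42.9 to 76.8 for GR and from 32.9 to 61.0 for RELA.

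Among sites with both elements outside the repetitive sequence defined below, the PRKCH intron ranked highest by the lower of its percentiles, and it is followed here by 2 more of the 5 leading sites. The PRKCH site, printed above, had percentiles of 99.6 for GR and 98.0 for RELA, with intensities of 6.85 for GR with budesonide and 8.71 with cotreatment, and of 5.22 for RELA with IL-1β and 7.099 with cotreatment. PRKCH encodes a protein kinase C isoform. Near PTPN1, the gene of a tyrosine phosphatase, GR was 7.66 and 8.43 and RELA 4.73 and 6.98 in the same order. At the site 26.6 kb upstream of STAT4, GR was 5.40 and 7.52 and RELA 7.74 and 8.12. In each of these 3 sites both factors had the higher intensity with cotreatment.

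More copies of an element went with a larger lead. The median gap was 31.5 with 1 GRE, 37.5 with 2 and 59.7 with 3 or more. For κB elements it was -29.1, -36.9 and -39.4 in the same order. Counted over the whole 400 bp site, the median GR percentile was 47.4 with 0 GREs, 67.7 with 1, 69.7 with 2 and 95.6 with 3 or more, the last over only 8 sites. The median RELA percentile at those 8 sites was 29.4. For κB elements the median RELA percentile was 43.0 with 0 copies, 71.2 with 1, 75.4 with 2 and 82.8 with 3 or more (44 sites). The median GR percentile over the κB sites stayed between 30.8 and 33.4 whatever the number of copies, below the 53.6 of sites without one.

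The GR-led sites furthest from RELA often held a GRE and lacked a κB element near the centre. The 10 with the largest gap among sites in the top 10% for GR had GR percentiles from 90.01 to 97.03 and RELA percentiles from 5.95 to 14.2. Of the 10, 5 held a GRE, none held a κB element within 200 bp of sequence around the centre, and 2 lay within 1 kb of a gene start. Over all sites these shares were 10.9%, 18.7% and 3.51%. The first was in an intron of KLF13, a Krüppel-like transcription factor, with a GR intensity of 6.86 and a RELA intensity of 2.14, and a RELA intensity of 0 with IL-1β alone. The site 0.694 kb upstream of CIART, a circadian repressor, had 6.63 for GR and 2.33 for RELA and held no GRE match. A site 21.6 kb upstream of SCNN1B, a subunit of the epithelial sodium channel, had 6.33 for GR and 2.39 for RELA. The site printed above for FCRL5, an immune receptor gene, lay 132 kb from its start, held 4 GREs over its 400 bp and had 7.33 for GR and 2.94 for RELA. GR at these sites was already strong with budesonide alone, where the 10 ranged from 5.98 to 7.29.

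The RELA-led sites furthest from GR all held a κB element, and 4 of the 10 lay within 1 kb of a gene start. Over all sites these shares were 18.7% and 3.51%. RELA percentiles ran from 92.4 to 99.3 and GR percentiles from 0.220 to 7.72, and no GRE was found. The extreme site lay 2.76 kb upstream of CEMIP, which encodes a hyaluronan-binding protein, with a RELA intensity of 7.23 and a GR intensity of 0. At the start shared by CCDC122 and LACC1, a regulator of macrophage metabolism, RELA was 7.24 and GR 0.910. TRAF3, an adaptor that restrains noncanonical NF-κB signalling, had a site 29 bp from its start with 6.17 for RELA and 0.232 for GR. The site 31 bp upstream of HMGXB4 had 6.70 for RELA and 1.35 for GR, and that 40 bp upstream of APLF, a DNA repair factor gene, 6.54 and 2.08. RELA at the 10 sites was as strong with IL-1β alone, where it ranged from 5.96 to 8.00.

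RELA-led sites were more often promoter-proximal than GR-led sites. Of the RELA-led sites, 108 (10.9%, 9.13 to 13.0) lay within 1 kb of a protein-coding start, compared with 23 GR-led sites (3.57%, 2.39 to 5.29), 71 sites in the top 25% for both (4.99%, 3.97 to 6.24) and 406 of all sites (3.51%, 3.19 to 3.86). The median distance to a start was 31.2 kb for RELA-led, 46.9 kb for GR-led and 51.1 kb for all sites. Near starts the κB element divided the sites further. The 149 with a κB element had median percentiles of 32.4 for GR and 91.1 for RELA, and 76 of them (51.0%) were RELA-led and none GR-led. The 257 without one had medians of 70.2 and 64.8. The rank correlation was 0.0279 within 1 kb of a start, 0.172 from 1 to 5 kb and 0.389 beyond 200 kb, so the ranks rose together at distal sites and hardly at promoters.

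The 10 sites ranked highest for both factors were all in repetitive sequence, which sets them apart from the rest. A site was taken as repetitive when at least 50% of its 32-base words occur more than once in the genome, or when it holds at least 10 copies of GGAAT or its complement. This measure was chosen after the ranks were seen. By it, 772 of all sites (6.67%, 6.23 to 7.14) and 90 of the 477 in the top 10% for both (18.9%, 15.6 to 22.6) were repetitive, and 160 sites were of the GGAAT kind. The CWH43 site printed above held 44 copies, lay 182 kb from an assembly gap, and had intensities of 10.5 for GR with budesonide, 9.94 for GR with cotreatment, 10.0 for RELA with IL-1β and 9.58 for RELA with cotreatment. The highest site of all, 232 kb from the start of SHCBP1 and 9.05 kb from a gap, had 11.0, 10.8, 10.8 and 10.5 in the same order. The FSTL3 site, also among the 10, had a different profile and is described below. The CWH43 and SHCBP1 sites were thus high to a similar degree in every column read.

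The same flatness held over the class. Among the 90 repetitive sites in the top 10% for both, the median range over the 4 columns was 0.824, compared with 2.05 among the 387 others. With single treatments, 81 of the 90 were already in the top 10% for GR with budesonide and for RELA with IL-1β, whereas this was so for 81 of the 387 others (20.9%). The part of multiply mapping reads in these values was not tested. Without repetitive sites rho was 0.324 over 10799 sites, the GR-led and RELA-led sites numbered 618 and 944 after ranking again, and the share of the top 10% lists in common was 37.6%.

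The FSTL3 and SERPINA2 sites met the rule for repetitive sequence but had a different profile. At FSTL3, which encodes a follistatin-like inhibitor of activin, the site 1.65 kb upstream of the start had a GR intensity of 2.66 with budesonide alone and 9.41 with cotreatment, and a RELA intensity of 7.29 with IL-1β alone and 9.18 with cotreatment. The site 20.5 kb downstream of the SERPINA2 start, for which the table names SERPINA6, the gene of corticosteroid-binding globulin, had GR intensities of 2.76 and 8.92 and RELA intensities of 8.98 and 9.97. Each holds 7 κB elements and no GRE in its 400 bp, as tandem copies of a longer unit. GR thus moved from the 20.7 and 22.2 percentiles to 99.9 and 99.7.

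Other sites with many κB elements varied in GR. Of the 11 sites with at least 5 κB elements, chosen for description after these values were seen, 9 were in the top 25% for RELA and 4 in the top 25% for GR under cotreatment, compared with 8 for RELA with IL-1β alone and 1 for GR with budesonide alone. A site 85.0 kb from the MRM3 start, with 7 copies, went from the 4.56 to the 82.3 percentile for GR and from the 50.4 to the 94.9 percentile for RELA. The RXRA site with 6 copies was high for GR with budesonide alone, at 86.1, and remained at 84.8. The GADD45B site, with 5, had 89.6 for RELA and 34.7 for GR.

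Outside repetitive sequence, the sites highest for both factors included some near acute-phase, cytochrome P450 and NF-κB feedback genes. The first, 13.1 kb upstream of SERPINA3, the gene of the acute-phase protein α1-antichymotrypsin, had a GR intensity of 8.87 with budesonide and 9.29 with cotreatment, and a RELA intensity of 7.62 with IL-1β and 8.52 with cotreatment. It ranked at 99.9 for GR and 99.8 for RELA and held an AP-1 element. The next lay near CYP2A7 and CYP2B7P of the cytochrome P450 cluster, at 99.8 for both factors. NFKBIA, which encodes the inhibitor IκBα, had a site 0.724 kb from its start at 99.4 for GR and 99.9 for RELA. The VMP1 intron printed above, in an autophagy gene, had a GR intensity of 8.16 with budesonide and 8.76 with cotreatment, while RELA was 5.15 with IL-1β and 7.99 with cotreatment. RELA at VMP1 therefore moved from the 72.6 to the 99.7 percentile. Over these 10 sites the GR percentile ran from 99.1 to 99.9 and the RELA percentile from 99.1 to 99.9.

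The strongest single-factor sites outside repeats differed in what the other factor did. The strongest GR site, chr3:127304227-127304626, for which the table names MCM2, had a GRE, a GR intensity of 10.5 with budesonide and 10.4 with cotreatment, and a RELA intensity of 2.95 with IL-1β and 6.35 with cotreatment. The site near SLC45A1 had GR at 9.61 and 9.41 and RELA at 2.89 and 7.11, so that RELA stood at 98.1 under cotreatment. Each of the 5 strongest GR sites had a RELA percentile of at least 94.2. The strongest RELA site, within NFKB2, the gene of the NF-κB precursor p100, had RELA at 9.28 and 9.10 and GR at 3.06 and 5.64, a GR percentile of 79.0. The EIF5 site, 72.8 kb upstream of its start, had RELA at 8.97 and 8.68 and GR at 2.37 and 6.44. The 5 strongest RELA sites had GR percentiles from 79.0 to 99.4, so none of either set was low for the other factor.

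The lead with single treatments was more often lost than kept, and never exchanged. An exchange would require the gap to pass both limits. When GR with budesonide was set against RELA with IL-1β, the rank correlation was -0.401, 2060 sites were GR-led and 2471 RELA-led. Of the 2060, 525 (25.5%) were GR-led under cotreatment, 1535 lay between the limits and none was RELA-led. Of the 2471, 864 (35.0%) were RELA-led under cotreatment, 1607 lay between and none was GR-led. Conversely, 81.4% of the GR-led and 87.4% of the RELA-led sites under cotreatment had led with the single treatments. Each factor kept much of its own order, with rho of 0.688 between GR with budesonide and GR with cotreatment and 0.775 between RELA with IL-1β and RELA with cotreatment. All of these correlations share sites, line and antibodies, and carry no p. They are taken over the same selection of bound sites, and the part of that selection in the value of -0.401 was not tested.

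Sites in the top 10% for both under cotreatment came from all combinations of single-treatment rank. Among the 387 outside repeats, 81 had been in the top 10% for both, 112 for GR alone, 116 for RELA alone and 78 for neither. These counts are not rates. Most of the 11571 sites were in neither top 10% list with single treatments, so the 78 came from by far the largest group. Sites that had been strong for GR alone and sites that had been strong for RELA alone were thus of similar number.

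Genes known as glucocorticoid targets had sites that leaned to GR, and known NF-κB targets had sites that leaned to RELA. A site was counted for a gene when it lay in the gene or within 50 kb of it. Over 103 sites at 24 of 25 glucocorticoid targets the median gap was 15.1 (quartiles -1.79 and 37.0), beside 2.21 over all sites, with 11 sites GR-led (10.7%, beside 5.57% of all sites) and 5 RELA-led (4.85%, beside 8.55%). Over 127 sites at all 29 NF-κB targets the median gap was -11.5 (quartiles -36.6 and 0.0648), with 5 sites GR-led (3.94%, beside 5.57% of all sites) and 19 RELA-led (15.0%, beside 8.55%). Sites in the top 25% for both were 22 (21.4%) and 39 (30.7%) of these, compared with 12.3% of all sites.

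Among glucocorticoid targets, FKBP5, a chaperone partner of GR, had its highest GR site 5.90 kb from the start at 99.8 for GR and 87.5 for RELA. PER1, a circadian repressor, had 99.8 and 73.1 at 2.04 kb. At KLF15, a Krüppel-like factor, the site 31.95 kb upstream had 94.7 for GR and 47.8 for RELA, and PDK4, a regulator of glucose oxidation, had 94.96 and 54.1. Each of these sites was chosen as the highest for GR at its gene, which favours a GR lean. DUSP1, a phosphatase that switches off MAP kinases, differed in that its site 1.32 kb upstream was high for both, at 98.9 and 97.9, as was that of the metallothionein gene MT2A at 99.4 and 96.7. SCNN1A, another sodium channel subunit, had separate sites, at 98.8 for GR and 84.3 for RELA 1.41 kb from the start and at 39.0 for GR and 96.3 for RELA 8.98 kb upstream.

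Among NF-κB targets, 24 of 29 genes had a site in the top 10% for RELA, and GR at these sites varied. The count takes each gene at the highest of its sites, and the share over all genes was not determined. Neighbouring genes can share a site, as BIRC3 and BIRC2 do, and CXCL3 and CXCL5. CXCL8, a neutrophil chemokine, had its highest RELA site 42 bp upstream of the start, at 99.5 for RELA and 86.2 for GR. CCL2, a monocyte chemokine, had 99.4 for RELA and 95.2 for GR, and CCL20 had 99.5 and 86.7, whereas the promoter site of the chemokine gene CXCL1 had 98.2 and 59.1. PTGS2, which encodes cyclooxygenase-2, had 99.6 and 96.3 at 35.1 kb upstream. TNFAIP3, which encodes the NF-κB inhibitor A20, had a promoter site at 98.4 for RELA and 59.7 for GR and a site 6.32 kb downstream at 97.8 and 95.7. The only site of NFKBIE, which encodes another IκB protein, had 75.6 for RELA and 27.4 for GR. Of the genes of NF-κB subunits, RELB had a promoter site at 96.0 for RELA and 14.0 for GR, NFKB1 had 98.2 and 51.1, and the NFKB2 site named above 99.9 and 79.0. SOD2, a mitochondrial antioxidant enzyme, had 97.1 for RELA and 37.2 for GR. TRAF1 and CSF3 stood against the list, leaning to GR even at the site of highest RELA. For TRAF1 this site had 31.4 for GR and 14.3 for RELA, and for CSF3 81.8 and 72.9. The site of highest GR at TRAF1 had 75.7 for GR and 12.2 for RELA.

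Genes the study names as controlled by both stimuli form a list chosen on these cells and so not independent of them. They had 72 sites at 12 genes with a median gap of -0.959, beside 2.21 over all sites. Of these sites 26 (36.1%) were in the top 25% for both, beside 12.3% of all sites. Led sites were 3 for GR (4.17%, beside 5.57% of all sites) and 6 for RELA (8.33%, beside 8.55%). DDIT4, an inhibitor of mTOR signalling, had a site at 99.8 for GR and 91.1 for RELA and another at 94.5 and 99.5. EGFR, the epidermal growth factor receptor gene, had a GR-leaning site 0.520 kb from its start, at 90.1 and 46.5, and an intronic site at 82.1 and 98.7. B4GALT1, a galactosyltransferase gene, had sites at 99.6 and 93.5 and at 78.7 and 98.3. In this list, 8 of the 12 genes had a top 10% site for each factor, compared with 9 of 24 glucocorticoid targets and 13 of 29 NF-κB targets. Among the last, BIRC3 and BIRC2 were counted with the same sites. The lists also overlap, and the share over all genes was not determined. BIRC3, NFKBIA and TNFAIP3 are in the study's list and among the NF-κB targets. SGK1 and ERRFI1 are in the study's list and among the glucocorticoid targets. The highest GR and the highest RELA site were the same at 1 of the 12, 15 of the 24 and 11 of the 29, and the lists differ in their number of sites per gene.

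Across the 8 sites of the BIRC3 and BIRC2 locus, which encodes inhibitors of apoptosis, the gap changed sign between neighbours. The sites R2 and R4, 11.0 kb and 84 bp upstream of the BIRC3 start, were high for both, with gaps of 3.35 and -4.67. R3, between them, held a GRE and was GR-led, with 59.0 for GR and 6.69 for RELA. R7, 1.12 kb upstream of the BIRC2 start, leaned to RELA, with 38.5 and 74.9. R1 met the rule for repetitive sequence, with 64.8% of its words present more than once, and holds a GRE and a κB element with 92.6 for GR and 86.0 for RELA.

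The lists of other genes were small. Lung epithelial genes had 28 sites at 9 of 14 genes with a median gap of 6.30. Of these sites 8 were in the top 25% for both (28.6%), beside 12.3% of all sites. The share was 21.4% for glucocorticoid targets and 30.7% for NF-κB targets, so such an excess was not particular to the target lists. Among the 8 was a site near SFTPB, a surfactant protein gene, at 99.5 for GR and 93.1 for RELA. AP-1 family genes had 15 sites at 7 of 10 genes with a median gap of 6.35, and 2 (13.3%) were in the top 25% for both. BATF had a site at 99.7 for GR and 93.3 for RELA and another, RELA-led, at 16.2 and 95.7. The 3 loci used as negative controls for ChIP-qPCR had no site in the table.

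Sites close to each other on a chromosome were only loosely alike in their gap. For 181 pairs of adjacent sites less than 1 kb apart the rank correlation of the gaps was 0.207, for 1431 pairs from 1 to 5 kb it was 0.258, and for 4746 pairs over 100 kb apart it was 0.0282. Where both sites of a pair 1 to 5 kb apart were led, the leaders were opposite in 5 of 26 pairs. From 5 to 20 kb they were opposite in 13 of 26.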

How the data were processed

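A549 chromatin was sequenced in 18 libraries (9 groups, 2 of these libraries being inputs) after precipitation of GR or RELA. The authors aligned reads to GRCh38 with Bowtie2 2.4.4 after FastQC 0.10.1. The submitters' processing notes also name SAMtools, MACS2 2.2.7.1 and DiffBind 3.2. The deposited binding intensity is a score without a stated scale, given as 1 value per site over both libraries. The table's 46284 lines also hold the authors' fold over NS, FDR and labels of site behavior and trend, none of which was used.

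Sites were joined by name and ranked within each ChIP, with mean ranks for ties (50 sites at 0 for GR, 77 for RELA). Gene starts came from GENCODE 44 and sequence from GRCh38, in which all sites lay within chromosome ends. Motifs were searched on both strands within 200 bp around the centre, and copies were counted over 400 bp, with matches less than 10 bp apart counted as 1. No test was run, because the table holds no values per library. Sites named are the 10 leading each class, the 5 highest for each factor, the BIRC3 locus and the sites of listed genes. Outside this rule, sites outside repeats, sites with both motifs and κB arrays were chosen after their values were seen. The classes, members and gene lists were chosen with earlier results of these data known. Simulated data were used to test the ranks and the motif search. Scripts ran under Python 3.11.15 with SciPy 1.17.1, NumPy 2.4.6, pysam 0.24.0, numba 0.67.0, pandas 2.3.3 and Matplotlib 3.10.9.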

Additional observations from a re-analysis of the deposited data

How the results depend on the processing

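The rank correlation of 0.339 moved to 0.190 over sites with an intensity of at least 4 for either factor and was 0.232 as Kendall's tau-b. It lay between 0.323 and 0.371 in the other alternatives, among them leaving out sites at 0, near neighbours, promoters or each chromosome. The share of the top lists in common, 41.2% for the top 10%, was 46.9% for the top 20% and 37.6% without repetitive sites, the last added after the data were seen. With a gap of 30 points in place of 50, GR-led sites numbered 2187 and RELA-led sites 2322, and with 70 points 95 and 229. The share of GR-led sites with a κB element, 1.71%, was 0.465% in a window of 100 bp and 3.26% in one of 400 bp, and that of RELA-led sites within 5 kb of a gene start was 19.5%, in place of 10.9% within 1 kb. No value reversed. GREs were more frequent at GR-led than RELA-led sites in 4 of 4 alternatives, κB elements at RELA-led sites in 3 of 3, and gene starts at RELA-led sites in 2 of 2. No paired analysis was possible because the table holds 1 value per site over both libraries, and for the same reason leaving out each replicate was not run. Depth and replicate error therefore stay unknown for every rank.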
